A study of Rattus norvegicus with 6 samples.

Results

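The onset of hyperglycemia was examined within 1 genotype, by comparing livers of diabetic BBDR.lyp/lyp rats with livers of BBDR.lyp/lyp rats that were not yet diabetic. The comparison used 4 of the 6 arrays of the series, namely the 2 arrays from rats of 55 days, sampled shortly after hyperglycemia began (post-hyperglycemia), and the 2 arrays from rats of 50 days that were not yet hyperglycemic (pre-hyperglycemia). Every probe set of the array entered it except the Affymetrix controls, 31042 of 31099. The other 2 arrays came from BBDR.+/+ rats of 55 days, which carry the normal gene, stay normoglycemic and served here as a reference level. All 3 groups share the BBDR (BioBreeding Diabetes Resistant) background. The lyp/lyp rats are homozygous for the lymphopenia mutation, a frameshift in Gimap5 on a region brought in from the diabetes-prone BB strain, and they lack most T cells both before and after the onset of diabetes. The labels name no treatment. The labels describe a fast of 12 h before collection, whereas the methods describe free access to food. Within lyp/lyp, hyperglycemia comes with a later age, and the 2 cannot be told apart. The labels do not say whether the 2 arrays of a group came from separate rats, so each p-value measures only the spread between these samples. The methods read as repeated liver sampling of the same rats, but no label links an array to a rat.

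Insulin is the main signal by which a meal reaches the liver. It promotes glycolysis and the synthesis of fatty acids, and it restrains gluconeogenesis, fatty acid oxidation and the making of ketone bodies. In the BB rat the beta cells are destroyed by the immune system, and once too few are left the liver loses most of its insulin supply. In untreated diabetes the classical changes of liver are less glucokinase and lipogenic enzyme, more gluconeogenic enzyme, and a shift from glucose to fat as fuel. Many of the same genes also follow the feeding cycle through the circadian clock, so that a fast, the hour of sampling and a lack of insulin can move the same transcripts.

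Values are the log2 signal of a probe set, a group of short probes that lie towards the 3' end of a transcript, and differences are post-hyperglycemia minus pre-hyperglycemia. Signs follow the deposited sample labels. For most of the insulin- and glucose-regulated genes that the study lists, Cd36, Cdkn1a, Acot12 and Scarb1 among them, the study prints a sign opposite to the one found here, with an order of subtraction that is not given in the sources used here. If the labels of the lyp/lyp groups were exchanged, every direction given here would turn. Affymetrix controls set aside numbered 57. The rest of the text gives weight to 1 probe set per gene, the brightest over the 6 arrays, which covered 14217 genes. Hepatocyte transcripts were at the top of the scale on every array, with albumin (Alb) at 14.60 to 14.62 and transthyretin (Ttr) at 13.91 to 14.07. Of 3 sex chromosome genes, Xist lay at 11.05 to 11.38, Uty at 9.18 to 9.68 and Eif2s3y at 2.27 to 2.62 over the 6 arrays. With Xist high and Eif2s3y low on every array, the signal of the Uty probe set is not read as a mark of male rats. Gimap5 was 5.52 and 5.85 before hyperglycemia, 5.71 and 5.91 after it and 6.43 and 6.45 in BBDR.+/+, and its difference within lyp/lyp was 0.13 (SE 0.13, adjusted p = 0.723 from limma). A frameshift need not change the level of a transcript, and the position of the probes relative to the mutation was not examined, so this probe set is no check of the genotype. Of the cell type marker lists, no member of the hepatocyte (7 measured), Kupffer cell (10), neutrophil and monocyte (10), T and NK cell (15), B and plasma cell (5), endothelial cell (8), cholangiocyte (6), erythroid cell (7), pancreatic acinar (10), adipocyte (6) or skeletal muscle (6) list was called between the lyp/lyp groups. The lists do not hold every gene of their cell type, and genes not reported here are not covered by that count. At an unadjusted p under 0.05 these lists had 6 members higher and 7 lower in all. Over all genes the shares at that level were 7.52% higher and 5.89% lower. The erythroid list held 3 of the 7 lower members. The stellate cell list had 2 of 12 members called and the mast cell list 1 of 6, as described further on.

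The 5' ends of the 2 control transcripts gave less signal on the post-hyperglycemia arrays. For beta-actin the 3' minus 5' control difference was 1.51 and 1.32 before hyperglycemia, 2.11 and 2.04 after it and 1.36 and 1.12 in BBDR.+/+. The GAPDH control gave 0.67 and 0.55 before, 1.37 and 1.33 after and 0.72 and 0.44 in BBDR.+/+. The lyp/lyp groups therefore did not overlap in either control, and replicate 1 had the larger value in each of the 3 groups. The part of this difference in the results below cannot be told apart from that of hyperglycemia in this design. With it as a covariate limma called 0 probe sets, 2186 had an unadjusted p under 0.05, and the methods' t-test without it called 0 after adjustment. Of the 62 named genes called without it, 8 changed sign with it, namely Acadsb (0.49), Slc30a1 (0.34), Golph3 (0.22), Hsd3b7 (0.18), Cd36 (0.13), Foxa3 (0.10), Abcg8 (0.06) and Cdk1 (0.03), each a fall without it. This covariate was tried for single genes after the data were seen.

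Over all probe sets, 677 were called at an adjusted p under 0.05, or 2.18% of those tested, with 223 higher (0.718%) and 454 lower (1.46%) after hyperglycemia. The excess of lower calls lay in 2 classes. Among the 6609 probe sets that were the dimmer ones of a gene with several, 289 (4.37%) were lower and 33 (0.499%) higher. Among the 436 probe sets with several gene symbols, 20 (4.59%) were lower and 2 (0.459%) higher. In contrast, the 4525 brightest probe sets of genes with several had 23 (0.508%) lower and 32 (0.707%) higher, and the 9692 that were the only one of their gene had 72 (0.743%) lower and 68 (0.702%) higher. The 9780 with no symbol had 50 (0.511%) lower and 88 (0.900%) higher. For the brightest probe sets, the measure used from here on, 195 of 14217 genes were called (1.37%), of which 100 were higher (0.703%) and 95 lower (0.668%). Before adjustment, at a p under 0.05, these shares were 7.52% higher and 5.89% lower. Centring each array on its ribosomal protein genes, which moved the differences of all probe sets by 0.077, split the called genes into 239 higher and 63 lower.

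**Figure D1:**
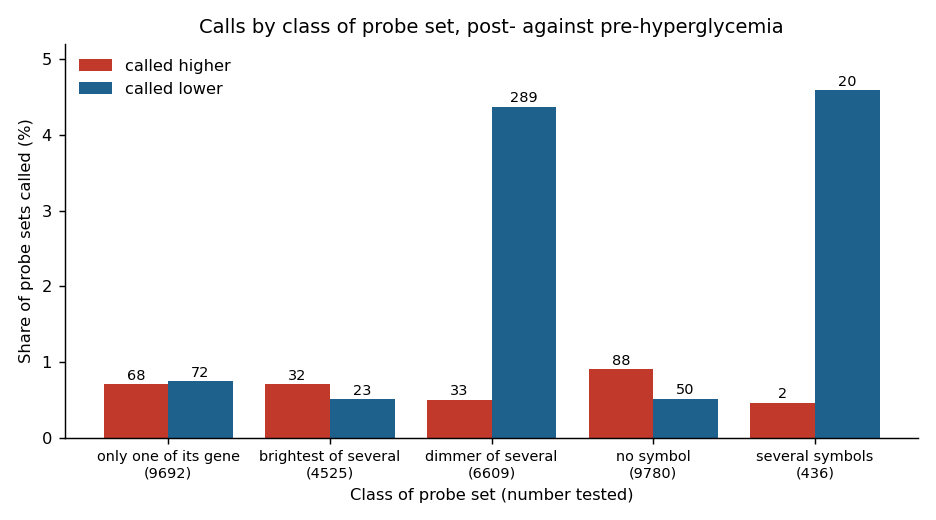
Share of probe sets called higher or lower after hyperglycemia (percent, vertical axis) by class of probe set, with the number tested under each class and the number called above each bar. Lower calls reached 4.37% and 4.59% in the dimmer probe sets of a gene and in those with several symbols and stayed under 1% in the other classes.

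The called genes changed by moderate amounts. The rises ran from 0.45 to 1.39 on the log2 scale (median 0.61) and the falls from -0.46 to -1.80 (median -0.62), with 7 rises and 6 falls of at least 1. Over all genes the median difference was 0.01, and the 5th and 95th percentiles were -0.27 and 0.30. In each of the 195 called genes the pre- and post-hyperglycemia arrays did not overlap, which the rule for a call largely fixes. The share of all genes without overlap was not counted, so the absence of overlap is not read as a result. The order of the replicates differed between the called sets. Of the 95 genes called lower, 39 (41.1%) had a lower signal on replicate 1 than on replicate 2 in all 3 groups, compared with 14 of 100 genes called higher and 16.9% of all genes. The controls named above showed the weaker 5' signal on the same replicate. Below, such a gene is called low on replicate 1 throughout. Among the rises given below, Cxcl1, Nr1d1, Hsph1, Acaca and Scd were of this kind.

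**Figure D2:**
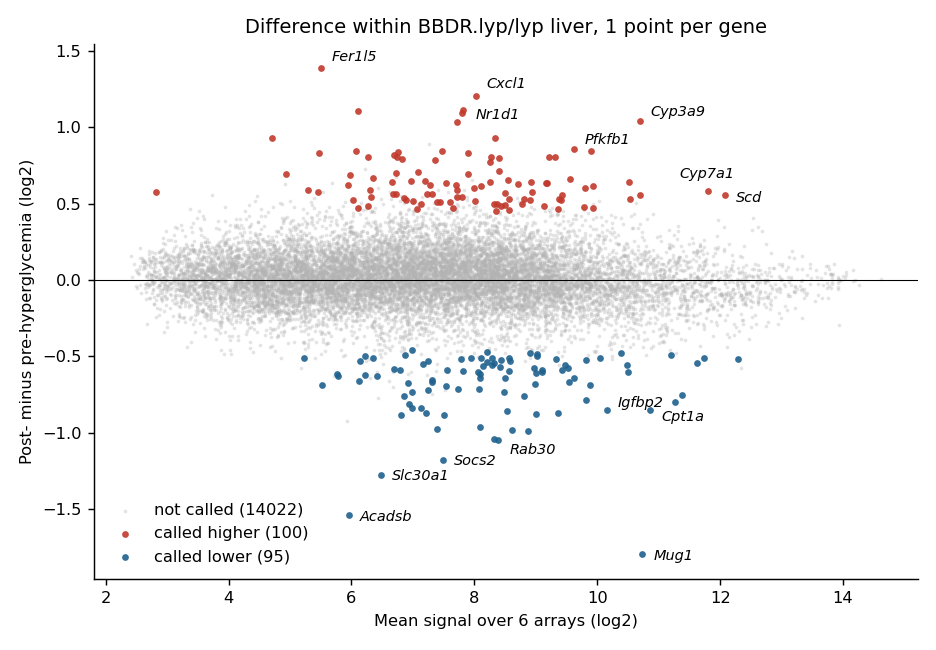
Difference between post- and pre-hyperglycemia (log2, vertical axis) against the mean signal over 6 arrays (log2, horizontal axis), 1 point per gene on its brightest probe set. The 100 genes called higher are red and the 95 called lower are blue. Their mean signals ran from 2.81 to 12.08 and from 5.23 to 12.29. They leaned to the brighter side, with 32 of the 100 and 22 of the 95 below the median signal of all genes.

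The largest rise was that of Fer1l5, a member of the ferlin family of membrane proteins. Its signal was 5.03 and 5.09 before hyperglycemia, 6.32 and 6.57 after it and 5.03 and 5.00 in BBDR.+/+, a difference of 1.39 (SE 0.11, adjusted p = 0.00127). The post-hyperglycemia arrays thus stood alone above the other 4. Cxcl1, a chemokine that draws neutrophils, was 7.97 and 8.25 before, 9.11 and 9.52 after and 6.61 and 6.68 in BBDR.+/+. The 3 groups did not overlap, and the rise within lyp/lyp was 1.21 (SE 0.15, adjusted p = 0.00361). It was the single called member of 22 chemokines and alarmins, whose median difference was 0.01. Cxcl2 and Cxcl6, other ligands of the same neutrophil receptor, differed by 0.10 and 0.01, and S100a8 and S100a9, calcium-binding proteins of neutrophils, by 0.08 and -0.21, none of them called.

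Several rises ended near the level of BBDR.+/+. Cyp3a9, a cytochrome P450 that oxidizes steroids and drugs, was 10.03 and 9.86 before hyperglycemia, 11.00 and 10.97 after it and 11.17 and 11.11 in BBDR.+/+. Its difference was 1.04 (SE 0.11, adjusted p = 0.00182), a 2.06-fold rise. Dab1, an adaptor of reelin signalling, was 5.43 and 5.32 before, 6.43 and 6.55 after and 6.44 and 6.44 in BBDR.+/+ (difference 1.11, SE 0.10, adjusted p = 0.00127). The 3 other probe sets of Dab1 were dimmer and differed by -0.10 to 0.22, none called. Sema3c, a secreted guidance protein, went from 7.10 and 7.05 to 8.12 and 8.11, with BBDR.+/+ at 7.95 and 7.94 (difference 1.04, SE 0.10, adjusted p = 0.00127). For these 3 genes the pre-hyperglycemia arrays were the ones that stood apart.

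Hsph1, a large heat shock protein that assists the refolding of proteins, followed the same order, from 9.30 and 9.34 before to 10.10 and 10.23 after, with BBDR.+/+ at 10.17 and 10.24. Its difference was 0.85 (SE 0.10, adjusted p = 0.00400). Pfkfb1, the liver enzyme that makes and breaks down fructose 2,6-bisphosphate and so sets the balance of glycolysis and gluconeogenesis, was 9.15 and 9.10 before, 9.96 and 10.01 after and 9.84 and 9.64 in BBDR.+/+ (difference 0.86, SE 0.11, adjusted p = 0.00442). Wnt4, a secreted Wnt ligand, was 7.07 and 7.04 before, 7.88 and 7.92 after and 7.42 and 7.51 in BBDR.+/+ (difference 0.85, SE 0.10, adjusted p = 0.00347). Rtn4rl2, a receptor of the Nogo family, rose by 0.93 (SE 0.11, adjusted p = 0.00328) and Spetex2l1 by 0.93 (SE 0.14, adjusted p = 0.00773). The small nucleolar RNA host Snhg4 was called at 0.85 (SE 0.19, adjusted p = 0.0448), but its call ended without post-hyperglycemia replicate 2, pre-hyperglycemia replicate 2 or either BBDR.+/+ array, with differences between 0.53 and 1.17.

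A rise after hyperglycemia did not always lead towards the normal level. Of the 100 genes called higher, BBDR.+/+ lay closer to post-hyperglycemia in 45 and closer to pre-hyperglycemia in 55. It lay level with the post-hyperglycemia arrays or past them, and apart from the pre-hyperglycemia ones, in 19, the reverse in 27, and between the lyp/lyp groups in 54. Of the 95 genes called lower, BBDR.+/+ lay closer to post-hyperglycemia in 49 and closer to pre-hyperglycemia in 46. These positions use the same lyp/lyp arrays as the calls and are given as a description. Among the falls, 12 of the 49 genes with BBDR.+/+ closer to post-hyperglycemia were low on replicate 1 throughout, compared with 27 of the 46 with BBDR.+/+ closer to pre-hyperglycemia.

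**Figure D3:**
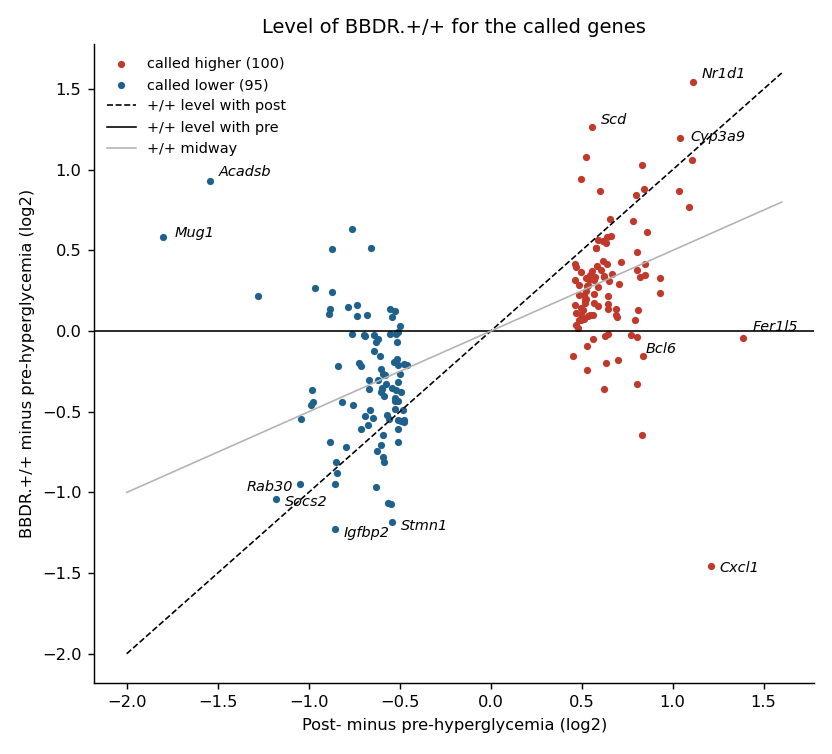
BBDR.+/+ minus pre-hyperglycemia (log2, vertical axis) against post- minus pre-hyperglycemia (log2, horizontal axis) for the 195 called genes, 1 point per gene. Points on the horizontal line have BBDR.+/+ level with pre-hyperglycemia, points on the dashed line level with post-hyperglycemia, and the grey line is midway. Both axes subtract the same pre-hyperglycemia arrays, so the slope of the cloud carries no result.

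The largest fall was that of Mug1, murinoglobulin 1, a protease inhibitor of rat plasma related to alpha-2-macroglobulin. Its signal was 11.11 and 11.17 before hyperglycemia, 9.02 and 9.66 after it and 11.48 and 11.97 in BBDR.+/+. The difference of -1.80 (SE 0.20, adjusted p = 0.00294) was a 3.48-fold fall, and Mug1 was low on replicate 1 throughout. Acadsb, which oxidizes branched-chain acyl-CoA in the breakdown of isoleucine, was 5.89 and 6.45 before, 4.51 and 4.75 after and 6.76 and 7.44 in BBDR.+/+ (difference -1.54, SE 0.22, adjusted p = 0.00745). Slc30a1, a zinc exporter, was 6.62 and 7.04 before, 5.33 and 5.78 after and 6.80 and 7.30 in BBDR.+/+ (difference -1.28, SE 0.20, adjusted p = 0.0109). In all 3 genes the post-hyperglycemia arrays were lower than the other 4, and replicate 1 was the lower array of each group. The call of Acadsb ended without post-hyperglycemia replicate 1 and that of Slc30a1 without this array or pre-hyperglycemia replicate 2. The differences over all omissions of 1 array were -1.82 to -1.26 for Acadsb and -1.50 to -1.05 for Slc30a1.

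Other falls did not share that order of the replicates. Rab30, a small GTPase of the Golgi, was 9.06 and 9.05 before hyperglycemia, 7.97 and 8.05 after it and 8.18 and 8.04 in BBDR.+/+ (difference -1.05, SE 0.10, adjusted p = 0.00165). Its second probe set, with a mean signal of 6.88, differed by -0.70 (adjusted p = 0.0324). Ppp2r2b, a regulatory subunit of protein phosphatase 2A, fell from 8.82 and 8.86 to 7.85 and 7.74, with BBDR.+/+ at 8.45 and 8.15 (difference -1.04, SE 0.12, adjusted p = 0.00328). Sfxn1, a mitochondrial serine carrier, went from 8.91 and 9.20 to 8.03 and 8.12, with BBDR.+/+ at 8.73 and 8.66 (difference -0.98, SE 0.12, adjusted p = 0.00361). Ddah1, which breaks down the nitric oxide synthase inhibitor dimethylarginine, went from 9.49 and 9.56 to 8.61 and 8.68, with BBDR.+/+ at 8.85 and 8.83 (difference -0.88, SE 0.10, adjusted p = 0.00328). The falls of Mug1, Rab30, Ppp2r2b, Sfxn1 and Ddah1 were called whichever array was left out.

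The remaining large falls were less even between the replicates. Cd14, a coreceptor for lipopolysaccharide, fell by 0.99 (SE 0.14, adjusted p = 0.00679), Foxa3, a forkhead factor of hepatocytes, by 0.97 (SE 0.16, adjusted p = 0.0118), Acox3, a peroxisomal oxidase of branched-chain fatty acids, by 0.97 (SE 0.17, adjusted p = 0.0169), and Golph3, a Golgi protein, by 0.87 (SE 0.16, adjusted p = 0.0204). These 4 were low on replicate 1 throughout, and their calls ended without post-hyperglycemia replicate 1 or pre-hyperglycemia replicate 2. Over the omissions their differences lay between -1.14 and -0.84 for Cd14, -1.21 and -0.74 for Foxa3, -1.26 and -0.67 for Acox3, and -1.05 and -0.69 for Golph3. Klf12, Lyn and Gnb1 were called at -0.89, -0.88 and -0.87, but a dimmer probe set of each differed by 0.13, 0.28 and 0.22. Of these, Lyn was low on replicate 1 throughout. When a gene's probe sets were averaged, the calls of these 3 were lost. They also ended in 4 or 5 of the 6 fits without 1 array, where the differences lay between -1.18 and -0.59 for Klf12 and for Lyn and between -1.06 and -0.68 for Gnb1.

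Where a called gene had further probe sets, these were more often of the same sign than not. The 32 genes called higher that had others held 50 of them, of which 33 had the same sign, 2 were called in the same direction and 1 in the opposite one. The 23 genes called lower held 30, of which 22 had the same sign and 8 were called in the same direction. The dimmer probe set of Cpt1a differed by -1.43 (adjusted p = 0.00127), that of Elovl6 by 0.81 (adjusted p = 0.00734), and that of Ccnb1 by -0.92 (adjusted p = 0.0131). In contrast, the second probe sets of Cdkn1a, Gpt2 and Acaca differed by 0.01, 0.01 and -0.18, and with the mean of probe sets the calls of Cdkn1a, Gpt2, Acaca, Dab1 and Hlf were lost.

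**Figure D4:**
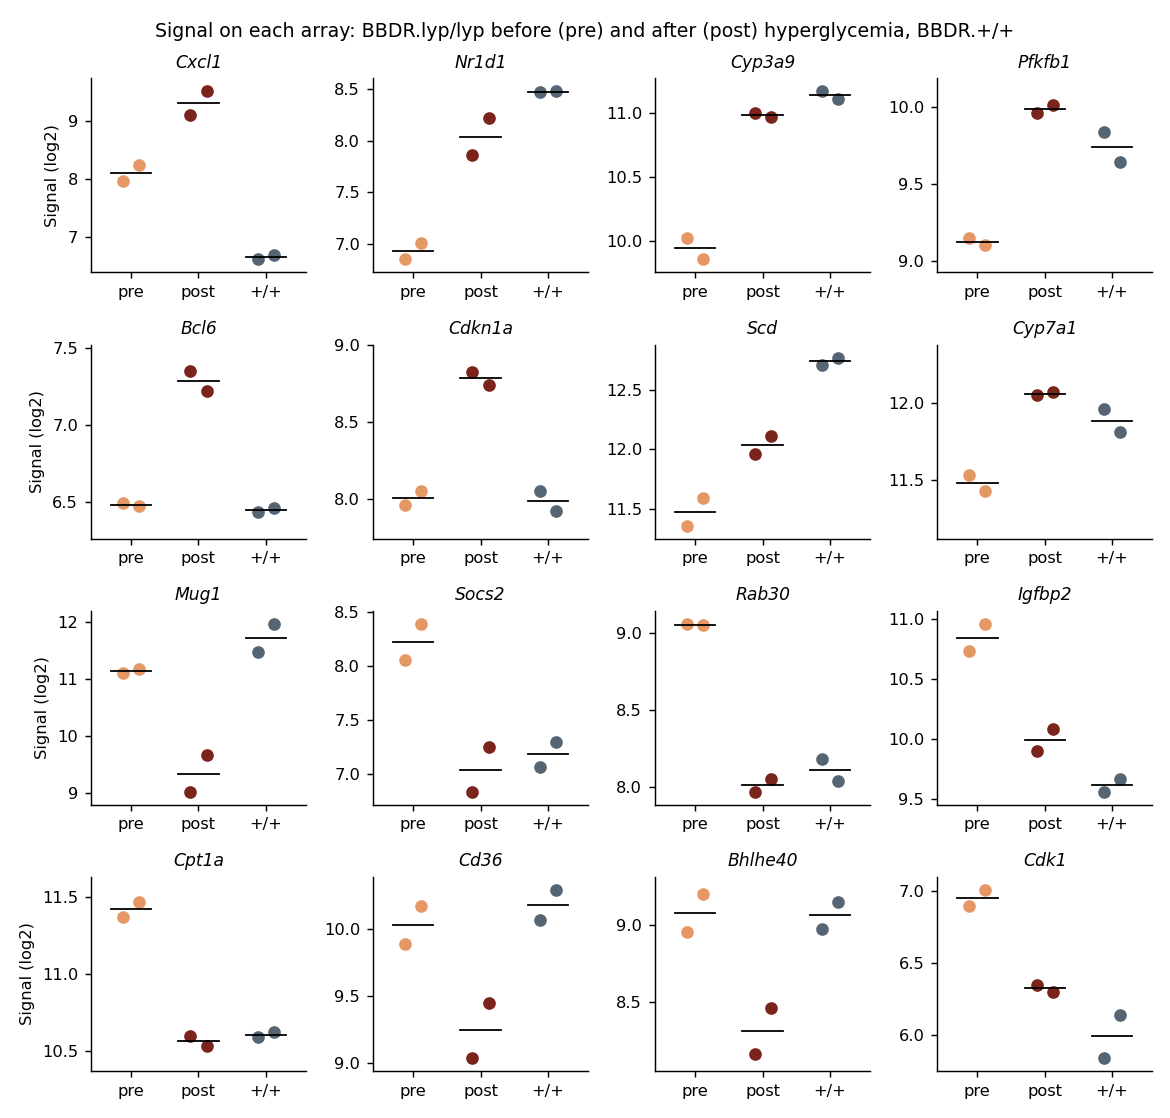
Log2 signal (vertical axis) of 16 genes on each of the 6 arrays, as points with the mean of 2 arrays as a line, for BBDR.lyp/lyp before (pre) and after (post) hyperglycemia and BBDR.+/+, with replicate 1 on the left of each pair. The vertical axis differs between genes. Cpt1a and Rab30 met the BBDR.+/+ level after hyperglycemia, whereas Cxcl1, Bcl6 and Cdkn1a left it further behind.

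The genes were next read by function, from lists of liver pathways and cell types. Over all genes 0.703% were called higher and 0.668% lower, and each count of called list members below stands beside these shares. Among 19 genes of the core clock and its output, 2 were higher (Nr1d1 and Hlf) and 1 lower (Bhlhe40), with a median difference of 0.09. Nr1d1 encodes REV-ERB alpha, a repressor that links the clock to lipid metabolism. It was 6.85 and 7.01 before hyperglycemia, 7.86 and 8.22 after it and 8.47 and 8.48 in BBDR.+/+, so that the rise of 1.11 (SE 0.13, adjusted p = 0.00328) stopped short of the normal level. Bhlhe40, an E-box repressor of the clock, was 8.95 and 9.20 before, 8.16 and 8.46 after and 8.97 and 9.15 in BBDR.+/+ (difference -0.76, SE 0.13, adjusted p = 0.0181). Hlf, an output factor of the PAR bZIP family, differed by 0.49 (SE 0.11, adjusted p = 0.0463) and lost its call whichever array was left out (0.38 to 0.59), whereas Nr1d1 was called in each such fit. Bhlhe40 was low on replicate 1 throughout, and its call ended without post-hyperglycemia replicate 1 or pre-hyperglycemia replicate 2 (-0.91 to -0.61 over the omissions).

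The other 16 clock genes were not called on their brightest probe sets. The activator Bmal1 differed by -0.43 (adjusted p = 0.0643), and its partners Clock and Npas2 by 0.13 and 0.17. The repressor Cry1 differed by 0.36 and Cry2 by -0.06. Per1 differed by 0.00, Per2 by 0.07 and Per3 by 0.33 on their brightest probe sets. A dimmer probe set of Per2 (mean signal 7.04) was called at 0.89 (adjusted p = 0.00677). Nr1d2, the paralog of Nr1d1, differed by 0.24 (adjusted p = 0.485). The output factors Dbp, Tef and Nfil3 differed by 0.11, 0.06 and 0.06. Bhlhe41 (-0.04), Rora (-0.17), Csnk1d (0.09) and Csnk1e (0.24) complete the list.

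The list of fatty acid oxidation and ketone body genes held only falls among its called members, all of them genes of fatty acid oxidation. Its ketone body gene Bdh1 differed by -0.28 and was not called, so the list says little about ketone body formation. Of 23 measured, 22 had a negative difference, beside 46.6% of all genes, with a median of -0.19, and 3 were called lower and 0 higher. At an unadjusted p under 0.05 there were 8 lower and 0 higher, beside 5.89% and 7.52% of all genes. Cpt1a, the carnitine palmitoyltransferase that commits fatty acids to mitochondrial oxidation, was 11.37 and 11.47 before hyperglycemia, 10.60 and 10.53 after it and 10.59 and 10.62 in BBDR.+/+. Its fall of 0.85 (SE 0.10, adjusted p = 0.00361) ended beside the BBDR.+/+ arrays, and the call remained whichever array was left out. Ehhadh, the peroxisomal bifunctional enzyme, was 11.68 and 11.88 before, 10.78 and 11.27 after and 11.27 and 11.37 in BBDR.+/+ (difference -0.75, SE 0.15, adjusted p = 0.0323). Ech1, an enoyl-CoA isomerase, differed by -0.49 (SE 0.11, adjusted p = 0.0448). Ehhadh was low on replicate 1 throughout. The call of Ehhadh ended without post-hyperglycemia replicate 1, pre-hyperglycemia replicate 2 or either BBDR.+/+ array (-0.51 without the first of these), and that of Ech1 whichever array was left out (-0.57 to -0.42).

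Among 19 targets of PPAR alpha outside beta-oxidation, 3 were lower and 0 higher, beside 0.668% and 0.703% of all genes. The list median was -0.13. PPAR alpha is the receptor that senses fatty acids in fasting. Cd36, a fatty acid translocase, was 9.89 and 10.17 before hyperglycemia, 9.04 and 9.45 after it and 10.07 and 10.29 in BBDR.+/+ (difference -0.78, SE 0.15, adjusted p = 0.0285). Here the post-hyperglycemia arrays were below the other 4, and Cd36 was low on replicate 1 throughout and changed sign with the 3' to 5' covariate. Vnn1, a pantetheinase, was called at -0.55 and Cyp4a3, a fatty acid omega-hydroxylase, at -0.51 (adjusted p = 0.0472 and 0.0465). Fgf21, the fasting hormone of liver, differed by -0.36, Pdk4, which blocks pyruvate oxidation, by 0.16, and Angptl4, an inhibitor of lipoprotein lipase, by 0.14, none of them called. Cd36 lost its call without post-hyperglycemia replicate 1, pre-hyperglycemia replicate 2 or either BBDR.+/+ array (-0.99 to -0.58), Vnn1 without 5 of the 6 arrays (-0.70 to -0.40) and Cyp4a3 whichever array was left out (-0.56 to -0.45). Of the 26 genes of oxidative phosphorylation, 19 had a negative difference (median -0.13), but limma called 0 (0 higher and 3 lower by the unadjusted p) and the methods' t-test 0 after adjustment.

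Fatty acid synthesis held 3 rises and no called fall among 22 genes on their brightest probe sets, although the median was -0.07. Of all genes, 0.703% were called higher and 0.668% lower. Of 14 dimmer probe sets in this list 1 was called lower and 2 higher, beside 4.37% and 0.499% of all dimmer probe sets. The fall was that of Elovl5 at -1.58 (adjusted p = 0.00571), and the rises were those of Elovl6 at 0.81 and Me1 at 0.52. The brightest probe sets of Elovl5 and Me1 differed by -0.12 and -0.18. Acaca, the cytosolic acetyl-CoA carboxylase, was 9.54 and 9.55 before hyperglycemia, 10.14 and 10.18 after it and 10.08 and 10.13 in BBDR.+/+ (difference 0.62, SE 0.10, adjusted p = 0.0122). Elovl6, which elongates palmitate, was 9.35 and 9.28 before, 9.92 and 9.91 after and 10.31 and 10.06 in BBDR.+/+ (difference 0.60, SE 0.11, adjusted p = 0.0246). Scd, the stearoyl-CoA desaturase that makes oleate, was 11.36 and 11.59 before, 11.96 and 12.11 after and 12.71 and 12.77 in BBDR.+/+ (difference 0.56, SE 0.12, adjusted p = 0.0359). All 3 were lowest in lyp/lyp before hyperglycemia. Fasn, Acly and Mlxipl differed by 0.29, 0.35 and 0.44 without a call. Srebf1, the lipogenic factor that insulin induces, differed by -0.14 (adjusted p = 0.699), Thrsp by 0.03 and Acacb, the carboxylase of the outer mitochondrial membrane, by -0.77 with a wide spread (6.48 and 7.03 against 5.78 and 6.18, SE 0.21, adjusted p = 0.0931). The call of Acaca ended without post-hyperglycemia replicate 1 or pre-hyperglycemia replicate 2 (0.60 to 0.64), that of Elovl6 without any single lyp/lyp array (0.57 to 0.64) and that of Scd whichever array was left out (0.44 to 0.67).

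Bile acid genes went both ways, with 2 of 21 higher, 4 lower and a median of -0.18. Of all genes, 0.703% were called higher and 0.668% lower. Cyp7a1, the rate-limiting enzyme of bile acid synthesis, was 11.53 and 11.43 before hyperglycemia, 12.05 and 12.07 after it and 11.96 and 11.81 in BBDR.+/+ (difference 0.58, SE 0.11, adjusted p = 0.0204). Nr0b2, the repressor SHP that acts on Cyp7a1, moved the other way, from 9.46 and 9.62 to 8.83 and 9.05, with BBDR.+/+ at 8.78 and 8.89 (difference -0.60, SE 0.12, adjusted p = 0.0282). Both therefore ended near the BBDR.+/+ arrays. Of the 4 falls in the list, those of Nr0b2, Hsd3b7 and Abcg8 were low on replicate 1 throughout, and Hsd3b7 and Abcg8 changed sign with the 3' to 5' covariate. Cyp39a1, which hydroxylates oxysterols, was called at 0.62 (adjusted p = 0.0323), and Hsd3b7, the next step after Cyp7a1, at -0.59 (adjusted p = 0.0428). The canalicular transporters Abcg8, for sterols, and Abcb4, for phospholipid, fell by 0.71 and 0.67 (adjusted p = 0.0203 and 0.0118). Abcg5, the partner of Abcg8, differed by -0.31, and the bile salt carriers Abcb11 and Slc10a1 by -0.19 and -0.18, none called. The differences without 1 array lay between 0.54 and 0.63 for Cyp7a1, -0.72 and -0.49 for Nr0b2, 0.44 and 0.79 for Cyp39a1, -0.74 and -0.44 for Hsd3b7, -0.83 and -0.59 for Abcg8 and -0.74 and -0.60 for Abcb4. Each of these 6 calls ended without pre-hyperglycemia replicate 2. Those of Cyp7a1, Nr0b2, Cyp39a1, Hsd3b7 and Abcg8 also ended without post-hyperglycemia replicate 1. Those of Cyp7a1, Abcb4, Cyp39a1 and Hsd3b7 also ended without post-hyperglycemia replicate 2. Without either BBDR.+/+ array, the calls of Nr0b2, Cyp39a1 and Hsd3b7 were lost.

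Cholesterol synthesis had 0 of 21 genes called by limma (0 higher and 6 lower by the unadjusted p) and 0 by the methods' t-test after adjustment, and a median of -0.09. Insig2, which holds the sterol sensor in the endoplasmic reticulum, came closest with 11.06 and 11.08 before hyperglycemia against 10.62 and 10.64 after it (difference -0.43, SE 0.10, adjusted p = 0.0520). Among 20 lipoprotein genes only the HDL receptor Scarb1 was called, at -0.48 (SE 0.11, adjusted p = 0.0499), a call that ended whichever array was left out (-0.56 to -0.41). The apolipoproteins lay close to 0, with Apoa1 at -0.13, Apob at -0.10, Apoe at 0.00 and Apoc3 at 0.07.

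In glucose metabolism Pfkfb1 was the single called member of 17 genes of glucose uptake, glycolysis and lactate (median 0.12). Pklr, the liver pyruvate kinase, differed by 0.19, Pfkl by 0.35 and the glucose transporter Slc2a2 by -0.09. Of 14 genes of gluconeogenesis and glycogen, limma called 0 (0 higher and 4 lower by the unadjusted p) and the methods' t-test 0 after adjustment. Pck1, the classical gluconeogenic enzyme, was 13.13 and 13.05 before hyperglycemia and 13.20 and 13.28 after it (difference 0.15, SE 0.10, adjusted p = 0.545). Pc, the pyruvate carboxylase, differed by -0.27 and Fbp1 by -0.09. Of 23 genes from the insulin receptor to FOXO, only Enpp1, an inhibitor of the receptor, was called on its brightest probe set, at -0.50 (adjusted p = 0.0408). The call ended whichever array was left out (-0.57 to -0.43). Of 25 dimmer probe sets in this list 2 were called lower and 0 higher, both of Akt2 (-1.2 and -0.85). The brightest probe set of Akt2 differed by -0.04. Insr, the receptor, differed by -0.62 with a wide spread after hyperglycemia (7.62 and 7.54 against 6.64 and 7.28, SE 0.17, adjusted p = 0.0998). Irs2 and Igfbp1, which insulin represses, differed by -0.48 and -0.37 (adjusted p = 0.0642 and 0.112).

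The growth hormone and IGF axis had 3 of 15 genes lower and 1 higher, with a median of -0.25. Of all genes, 0.668% were called lower and 0.703% higher. Socs2, the feedback inhibitor that growth hormone induces through STAT5, was 8.06 and 8.39 before hyperglycemia, 6.84 and 7.25 after it and 7.07 and 7.30 in BBDR.+/+ (difference -1.18, SE 0.16, adjusted p = 0.00605). Igfbp2, an IGF-binding protein of fasting and early life, was 10.73 and 10.96 before, 9.90 and 10.08 after and 9.56 and 9.67 in BBDR.+/+ (difference -0.85, SE 0.12, adjusted p = 0.00642). Both were low on replicate 1 throughout. Bcl6, a repressor that opposes STAT5 on sex-biased genes, moved the other way, from 6.49 and 6.47 to 7.35 and 7.22, with BBDR.+/+ at 6.43 and 6.46 (difference 0.80, SE 0.10, adjusted p = 0.00460). Stat5b was called at -0.46 (adjusted p = 0.0455), a call that ended whichever array was left out (-0.49 to -0.43). Igf1 differed by -0.08 and the growth hormone receptor Ghr by -0.22, neither called on its brightest probe set. Of 8 dimmer probe sets in this list 3 were called lower and 0 higher, beside 4.37% of all dimmer probe sets called lower. One of the 3 was that of Ghr, at -1.09 (adjusted p = 0.0136). Socs2 and Bcl6 were called whichever array was left out, and the call of Igfbp2 ended without pre-hyperglycemia replicate 2 (-0.97 to -0.74 over the omissions). Of 12 sex-biased liver genes limma called 0 (0 higher and 4 lower by the unadjusted p) and the methods' t-test 0 after adjustment.

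Of 36 cell cycle genes, 3 were called lower after hyperglycemia and 0 higher, 31 had a negative difference, and the median was -0.25. Of these 3, Ccnb1 was low on replicate 1 throughout, and Cdk1 changed sign with the 3' to 5' covariate. Before adjustment 15 were lower and 0 higher, and 5.89% of all genes were lower at that level. Ccnb1, cyclin B1, was 6.51 and 6.52 before hyperglycemia, 5.79 and 5.90 after it and 5.96 and 6.09 in BBDR.+/+ (difference -0.67, SE 0.11, adjusted p = 0.0113). Its kinase Cdk1 was 6.90 and 7.01 before, 6.35 and 6.30 after and 5.84 and 6.14 in BBDR.+/+ (difference -0.63, SE 0.12, adjusted p = 0.0260). Stmn1, which destabilizes microtubules, was 8.77 and 8.80 before, 8.16 and 8.33 after and 7.60 and 7.60 in BBDR.+/+ (difference -0.54, SE 0.11, adjusted p = 0.0279). Each was highest before hyperglycemia, and Cdk1 and Stmn1 stayed above the BBDR.+/+ arrays after it. Top2a and Mcm6 differed by -0.35 and -0.42 without a call, whereas Mki67, a marker of cycling cells, differed by 0.16. The call of Ccnb1 ended without post-hyperglycemia replicate 1 or pre-hyperglycemia replicate 2 (-0.72 to -0.61), that of Cdk1 without any single lyp/lyp array (-0.68 to -0.57) and that of Stmn1 without 5 of the 6 arrays (-0.62 to -0.45). The erythroid marker list, whose cells also divide, had a median of -0.31 over 7 genes with Slc4a1 at -0.55 and Hbb at -0.39, and its part in the cell cycle values was not tested.

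**Figure D5:**
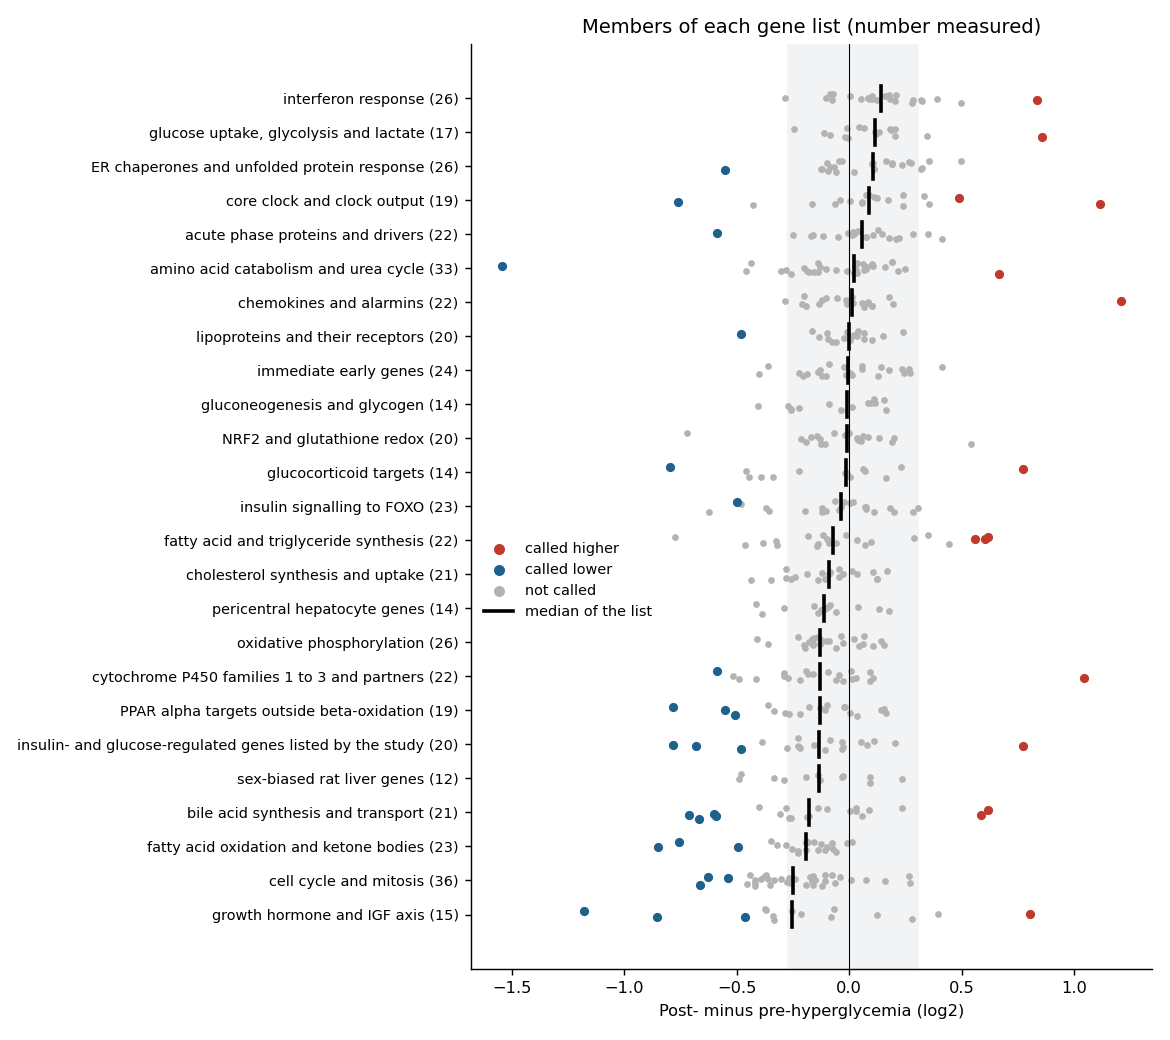
Difference between post- and pre-hyperglycemia (log2, horizontal axis) of every measured member of 25 gene lists, 1 row per list with the number measured, with called members in red (higher) or blue (lower) and the list median as a black bar. The grey band spans the 5th to 95th percentile of all genes, -0.27 to 0.30. List medians ran from -0.25 for the growth hormone and cell cycle lists to 0.14 for the interferon list. The band is that of single genes and is no measure for a median.

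Stress and damage genes were mixed. Cdkn1a, the cell cycle inhibitor p21, was 7.96 and 8.05 before hyperglycemia, 8.82 and 8.74 after it and 8.05 and 7.92 in BBDR.+/+ (difference 0.77, SE 0.11, adjusted p = 0.00605), and it was called whichever array was left out. Among 14 glucocorticoid targets it was the only rise, beside a fall of metallothionein Mt2A from 11.64 and 11.90 to 10.94 and 11.01 (difference -0.80, SE 0.12, adjusted p = 0.00907). Mt2A was low on replicate 1 throughout. The call of Mt2A ended without post-hyperglycemia replicate 1 or pre-hyperglycemia replicate 2 (-0.93 to -0.67). Mt1 differed by -0.22, Tat by -0.46 and Fkbp5 by 0.23, none called. In the unfolded protein response 1 of 26 genes was lower, Herpud1 at -0.55 (adjusted p = 0.0334, ended without 5 of the 6 arrays, -0.67 to -0.44), which was low on replicate 1 throughout. The chaperone Hspa5 differed by 0.32 and Creld2 by 0.50 (adjusted p = 0.156 and 0.0636). Of 20 NRF2 and glutathione genes limma called 0 (1 higher and 1 lower by the unadjusted p) and the methods' t-test 0 after adjustment. Hmox1, heme oxygenase 1, differed by 0.54 and Gsr, glutathione reductase, by -0.72 (adjusted p = 0.0682 and 0.0622). Of 24 immediate early genes limma called 0 (2 higher and 3 lower by the unadjusted p) and the methods' t-test 0 after adjustment.

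Inflammatory lists gave few calls. Of 26 interferon response genes 21 had a positive difference, beside 53.4% of all genes (median 0.14), and 1, the helicase-like Ddx60, was called, with 5.69 and 5.14 before hyperglycemia, 6.05 and 6.45 after it and 4.83 and 4.72 in BBDR.+/+ (difference 0.83, SE 0.18, adjusted p = 0.0408). Its call ended without 5 of the 6 arrays (0.56 to 1.11). At an unadjusted p under 0.05 there were 7 interferon genes higher and 0 lower, beside 7.52% and 5.89% of all genes. Of 22 acute phase genes, A2m, alpha-2-macroglobulin, was the only call, at -0.59 (SE 0.11, adjusted p = 0.0210), ended without either post-hyperglycemia array or pre-hyperglycemia replicate 2 (-0.66 to -0.52). Haptoglobin (Hp) differed by 0.02, Orm1 by 0.14 and Crp by -0.25. Mcpt1, a mast cell protease, was 6.06 and 6.15 before, 7.12 and 6.71 after and 5.84 and 5.72 in BBDR.+/+ (difference 0.81, SE 0.14, adjusted p = 0.0148), while the other 5 mast cell markers were not called, with Cpa3 at 0.32, Tpsb2 at -0.05 and Ms4a2 at -0.21. Its call ended without post-hyperglycemia replicate 1 or either pre-hyperglycemia array (0.60 to 1.01). The fibrillar collagen chains Col1a1 and Col1a2, of stellate cells and fibroblasts, were called at -0.51 and -0.62 (adjusted p = 0.0310 and 0.0293), and the list of 12 had a median of -0.17. The call of Col1a1 ended whichever array was left out (-0.58 to -0.45) and that of Col1a2, which was low on replicate 1 throughout, without 5 of the 6 arrays (-0.77 to -0.46). In whole liver, fewer cells of a type and less RNA per cell cannot be told apart.

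Of the other lists, amino acid catabolism and the urea cycle had 1 of 33 genes higher, Gpt2, the mitochondrial alanine aminotransferase (9.14 and 9.13 before, 9.85 and 9.75 after, difference 0.66, SE 0.10, adjusted p = 0.0101), and 1 lower, Acadsb. The call of Gpt2 ended without post-hyperglycemia replicate 1 or pre-hyperglycemia replicate 2 (0.62 to 0.71). Cytochrome P450 families 1 to 3 had Cyp3a9 higher and Cyp3a18 lower (-0.59, adjusted p = 0.0285, ended without 5 of the 6 arrays, -0.72 to -0.45) among 22. Cyp3a18 was low on replicate 1 throughout. Whether the probes separate the Cyp3a members fully was not examined. Pericentral hepatocyte genes had 0 of 14 called by limma (0 higher and 3 lower by the unadjusted p) and 0 by the methods' t-test after adjustment. The list of insulin- and glucose-regulated genes named by the study, which was chosen on these arrays and is no independent evidence, had Cdkn1a higher and Acot12, Cd36 and Scarb1 lower among 20 measured of 23. Its dimmer probe sets gave another picture, with 15 of 28 called lower and 0 higher, beside 4.37% of all dimmer probe sets called lower. Among them were Dusp1 (-1.37), Scarb1 (-1.05), Glul (-0.98) and Canx (-0.93), whose brightest probe sets differed by -0.22, -0.48, -0.39 and 0.11. Over all lists, 39 of 270 dimmer probe sets were called lower and 5 higher. Acot12, an acetyl-CoA thioesterase of liver, was 9.20 and 9.15 before, 8.52 and 8.47 after and 9.30 and 9.26 in BBDR.+/+ (difference -0.68, SE 0.10, adjusted p = 0.00800), and its call ended without pre-hyperglycemia replicate 2 (-0.71).

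The sequence before the start of transcription was read for the called genes that had 1 in the RefSeq promoter table (build GRCr8), over 250 bases. It was found for 79 of the 100 genes called higher, 81 of the 95 called lower and 11733 of all genes. Each motif was searched on both strands. The E-box CACGTG, which the clock factors bind, was present in 5.06% of the rises, 9.88% of the falls and 8.20% of all genes. GAANNTTC, 1 arrangement of the units of heat shock elements, was present in 12.7%, 2.47% and 5.42% in the same order, and CCAAT in 34.2%, 51.9% and 36.4%. Other arrangements of these units were not searched and are not marked below. A match is a description of the sequence and not a binding site. Shown here are the promoters of Hsph1, the heat shock protein whose rise is given above, and of Bhlhe40, the E-box repressor that fell. Hsph1 lies on the plus strand with this window at chr12:10427118-10427367, and Bhlhe40 on the plus strand at chr4:143174200-143174449. Capitals mark the matches to the 3 motifs on either strand. The heat shock match lies 31 to 24 bases before the start of Hsph1 and the E-box of Bhlhe40 lies 220 to 215 bases before its start.
Hsph1: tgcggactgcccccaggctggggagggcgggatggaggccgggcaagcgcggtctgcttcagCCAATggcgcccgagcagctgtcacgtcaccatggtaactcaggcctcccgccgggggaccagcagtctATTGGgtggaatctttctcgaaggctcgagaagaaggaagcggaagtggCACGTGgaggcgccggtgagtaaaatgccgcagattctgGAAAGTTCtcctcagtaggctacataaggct
Bhlhe40: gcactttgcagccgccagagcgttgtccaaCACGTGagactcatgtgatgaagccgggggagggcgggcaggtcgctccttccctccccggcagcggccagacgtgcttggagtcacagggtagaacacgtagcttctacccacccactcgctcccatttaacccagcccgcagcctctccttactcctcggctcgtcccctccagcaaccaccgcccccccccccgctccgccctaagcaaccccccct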

How the data were processed

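Liver RNA was measured on 6 Affymetrix rat arrays. Per the labels and methods, the authors used Affymetrix Expression Console for quantification and Partek Genomic Suite for normalization. For the algorithm and the versions, the sources used here give nothing. What the authors deposited were log2 signals, 1 per probe set and array, and 0 columns of per-sample values were left unused. The labels name another amplification kit than the methods.

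Samples were grouped by their labels. limma 3.58.1 (R 4.3.3) was fitted with 1 mean per group over all 6 arrays, which share 1 estimate of the spread, with variances moderated by eBayes (residual degrees of freedom 3, prior 7.70), no signal filter, and a Benjamini-Hochberg adjusted p under 0.05 over 31042 probe sets. Each adjusted p in the text is from this fit unless another is named. Symbols came from the array's annotation, with 20826 probe sets carrying 1 symbol, 436 several and 9780 none. The identifiers of 20758 were found in a current rat table, and 0 symbols changed. Each of 14217 genes was read on its brightest probe set. The number of arrays limits the precision. On simulated data of this size, limma recovered 70% to 75% of changes of 1 on the log2 scale and 98% to 99% of changes of 2. The simulated spread was shuffled among probe sets and held no 3' to 5' difference between groups. These shares therefore do not describe recovery on the real arrays.

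The members of the comparison and the gene lists were chosen with earlier results of these data known. Genes were named by a rule: the 15 largest called rises and falls, all clock genes, the called members of each list or else the 3 with the smallest p, the sex-linked and sex-biased genes and Gimap5. Some that it covers are not reported here. Mcpt1, Col1a1, Col1a2, most list members named without a call and the 2 promoters shown were chosen after their values were seen. Alternatives were other centring and normalization, signal filters, an intensity trend, a 3' to 5' covariate, a replicate block, the 4 lyp/lyp arrays alone, the methods' t-test, the mean of probe sets and each array left out. Tables and figures were made with Python 3.11.15, numpy 2.4.6, pandas 2.3.3 and matplotlib 3.10.9.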

Additional observations from a re-analysis of the deposited data

How the results depend on the processing

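Single genes changed sign under 1 alternative, the 3' to 5' covariate, which for genes and list medians was added after seeing the data. Of the 62 named genes called, 8 did so, with Acadsb at 0.49, Slc30a1 at 0.34, Golph3 at 0.22, Hsd3b7 at 0.18, Cd36 at 0.13, Foxa3 at 0.10, Abcg8 at 0.06 and Cdk1 at 0.03, and the other 54 were no longer called. Of 40 list medians, 14 had another sign with this covariate. Among them, the medians of the bile acid, fatty acid synthesis and erythroid lists were 0.02, 0.18 and 0.07 with it. With 1 array left out, the genes called higher numbered 18 to 62 and those called lower 11 to 81, and the probe sets called 112 to 537. Without pre-hyperglycemia replicate 2 there were 18 higher and 11 lower (112 probe sets), without post-hyperglycemia replicate 1 there were 45 and 16 (207), without post-hyperglycemia replicate 2 there were 37 and 81 (522), without pre-hyperglycemia replicate 1 there were 62 and 64 (537), and without either BBDR.+/+ array 49 and 48 (413), the same as with the 4 lyp/lyp arrays alone, by construction. With the intensity trend 226 genes were higher and 247 lower (1225 probe sets), with the top 30% of probe sets by mean 212 and 207, with the top 60% 173 and 159, and with ribosomal protein centring 239 and 63. The mean of probe sets gave 119 higher and 209 lower. The balance of 100 higher to 95 lower therefore also turned on the setting. The methods' t-test called 736 higher and 613 lower (2790 probe sets) at an unadjusted p under 0.05 and 0 of each after Benjamini-Hochberg adjustment. The 3' to 5' covariate left 0 of each, with 440 genes higher and 381 lower (2186 probe sets) at an unadjusted p under 0.05. The covariate separates the post-hyperglycemia arrays from the others, so the 2 cannot be told apart. The samples of pre- and post-hyperglycemia shared only a replicate number (correlation of the deviations 0.11). With a replicate block 182 genes were higher and 173 lower (1191 probe sets, among them the 677).

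Of the 62 named genes called, 21 were called whichever array was left out. Without pre-hyperglycemia replicate 2, 40 calls ended, and without post-hyperglycemia replicate 1, 36. Quantile normalization left 55 of the 62, median centring 61, ribosomal protein centring 54, the mean of probe sets 54 and the replicate block 62. Added later for single genes, the intensity trend left 62, the 4 lyp/lyp arrays 42 and the methods' t-test after adjustment 0, and all that passed the signal filters remained called (61 and 47). Of 717 recomputed list medians, 627 moved by less than the spread between arrays. Several alternatives leave every difference unchanged by construction. Among them are the intensity trend, the replicate block, the 4 lyp/lyp arrays alone, the methods' t-test and the omission of a BBDR.+/+ array. The count of 627 is therefore no measure of stability. The causes of the differences between settings were not tested. Signal near background was not filtered, and low probe sets understate changes.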
